A study of Homo sapiens with 4 samples.

Results

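The transcripts described here are those of the nuclear genes for respiratory complexes II to V and for ATPIF1 (now ATP5IF1), the inhibitor protein of the mitochondrial ATP synthase. They were chosen by gene symbol: SDHA to SDHD, symbols that begin with UQCR, COX4 to COX8 or ATP5, CYC1 and ATPIF1. The rule takes 53 of the 26830 gene rows in the deposited table, of which 4 belong to complex II, 11 to complex III, 17 to complex IV and 20 to complex V. The study asked which transcripts are bound by QKI7, 1 of the protein forms made from the RNA-binding protein gene QKI, by RNA immunoprecipitation and sequencing (RIP-seq). The groups were RNA precipitated with a Flag antibody (Flag-RIP, n = 2 libraries) and input RNA of the lysate (n = 2 libraries). All 4 libraries came from U2OS, a human osteosarcoma cell line, infected with a lentivirus for 3 x Flag-QKI7 and kept as a GFP-positive population. Cells had no further treatment, were cross-linked with ultraviolet light and were sonicated after lysis. Input cells therefore carried the tagged protein too, and a mock precipitation was not analysed here. The labels number the replicates but do not say whether they were separate cultures, so the p-values below rest on a spread that may be technical.

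Complexes II, III and IV carry electrons to oxygen in the inner mitochondrial membrane. Complex II (succinate dehydrogenase) also works in the citrate cycle, complex III passes electrons from ubiquinol to cytochrome c, and complex IV (cytochrome c oxidase) reduces oxygen. Complex V, the ATP synthase, uses the proton gradient built by the chain to make ATP, and ATPIF1 blocks the reverse reaction, in which the enzyme would break down ATP. Complexes III to V also hold subunits encoded in mitochondrial DNA, which were not analysed here. QKI is known for binding short sequence elements in RNA and for roles in splicing, stability and transport of its targets.

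Values are TPM, a length-normalised share of each library in which a few abundant RNAs set the scale. How many reads stand behind each value is unknown. The 7SL RNA rows took 39.8% and 43.4% of the Flag-RIP libraries, against 84.6% and 79.7% of the inputs, and spike-in RNAs took 18.9% and 25.6%, against 2.78% and 3.89%. The median log2(TPM + 1) of the 10415 tested genes, those with a mean of at least 1 TPM, lay 1.32 higher in Flag-RIP, so nearly every gene was higher there as deposited. Changes were therefore also taken after each library was shifted to a common median, and these centred changes give the place of a transcript relative to the median gene of its library. The mesenchymal gene VIM had 279 and 259 TPM in Flag-RIP and 140.5 and 182 TPM in input, SPARC and COL1A1 were at 35 TPM or more in every library, and the leukocyte gene PTPRC did not exceed 0.01 TPM. The bone markers RUNX2 and ALPL were low, at 0.14 to 6.52 TPM. The epithelial gene EPCAM had 0.58 and 0.42 TPM in Flag-RIP and 0.19 and 0.18 TPM in input. ALPL was no clearer than that, with 0.34 and 0.37 TPM in Flag-RIP and 0.14 and 0.30 TPM in input. The hepatocyte gene ALB was at 0 TPM and the muscle gene MYH7 at 0.02 TPM or less.

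The respiratory transcripts as a group were poorly represented in Flag-RIP relative to other genes, and ATPIF1 was the exception. Of the 53 members, 43 passed the filter. Of these, 35 were lower in Flag-RIP after centring and 1, ATPIF1, was higher (limma, Benjamini-Hochberg adjusted p under the threshold of 0.05). That is 81.4% of the tested members lower, beside 24.4% of all tested genes and 25.4% of the protein-coding ones. For the opposite direction the share over all tested genes was 16.4%. The median centred change was -0.90 over the 43 members, against -0.11 over all tested genes. The 42 tested members other than ATPIF1 had centred changes from -3.20 to -0.06, and in 40 of them both Flag-RIP values lay below both inputs, as they did for 47.3% of all tested genes. Both Flag-RIP values of ATPIF1 lay above both inputs, as they did for 29.4% of all tested genes. At an unadjusted limma p under 0.05, too, 0 genes of the 4 complexes were higher after centring. With no filter SDHC and ATP5S were, and without the 20 most abundant rows COX6B2 was. With no filter on low values the excess of lower members was lost: 20 of 52 members (38.5%) were lower, 14 of them among the 35, beside 43.6% of 23463 genes.

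Of the fits that left out an input library, the count of lower members was smaller without input replicate 1, as was that of all tested genes. Without that library 11 members (25.6%) were lower, beside 3.09% of all tested genes. All 11 were among the 35: UQCR10, UQCRQ, COX5A, COX5B, COX6C, COX7A2, ATP5D, ATP5E, ATP5G1, ATP5J2 and ATP5O. The members' values were uneven between the inputs. After centring, 39 of the 43 were higher in input replicate 1 than in input replicate 2, with a median difference of 0.28 on the log2 scale, against 0.04 over all tested genes. Without input replicate 2 there were 28 lower members (65.1%, beside 9.48% of all tested genes). Without Flag-RIP replicate 1 there were 34 (79.1%, beside 24.8%), and without Flag-RIP replicate 2 there were 37 (86%, beside 30.6%). The fits without a Flag-RIP library took each gene's variance from the trend over all genes (infinite prior degrees of freedom, against 5.28 without an input library). Their counts are therefore not comparable with those without an input library. The centred change of ATPIF1 was 3.76 and 3.68 without input replicates 1 and 2, and 3.35 and 4.09 without Flag-RIP replicates 1 and 2.

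In the deposited TPM the members changed little while most other genes rose. As deposited, 14 members were higher in Flag-RIP, 1 was lower and 28 did not pass (limma, adjusted p under 0.05). This is 32.6% of members higher, beside 92.3% of all tested genes, and the share lower over all tested genes was 0.317%. The ratio of mean TPM had a median of 1.4 over the members, against 3.32 over all tested genes, and lay below 1 for 9 members. The 14 higher members were ATPIF1, SDHA, SDHC and SDHD, UQCRB, UQCRC2, UQCRH and UQCRHL, and ATP5A1, ATP5C1, ATP5F1, ATP5L, ATP5S and ATP5SL. None was a complex IV gene. SDHC, SDHD, UQCRB and ATP5S had under 1 TPM in both inputs and passed the filter through their Flag-RIP values. That these genes were higher is not read as a result, here or in the fits with 1 library left out. Without Flag-RIP replicate 1 only ATPIF1, SDHC and ATP5S remained in this count, while the share over all tested genes was 51.8%. Without Flag-RIP replicate 2 only these and UQCRHL remained (59.4% over all tested genes), and without input replicate 2 there were 22 (94.1%). The lower member was ATP5E. Both Flag-RIP values lay above both inputs for 31 of the 43 members, beside 96.7% of all tested genes, and below both for 3, ATP5E, COX7A2 and COX7B, beside 0.845%.

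**Figure D1:**
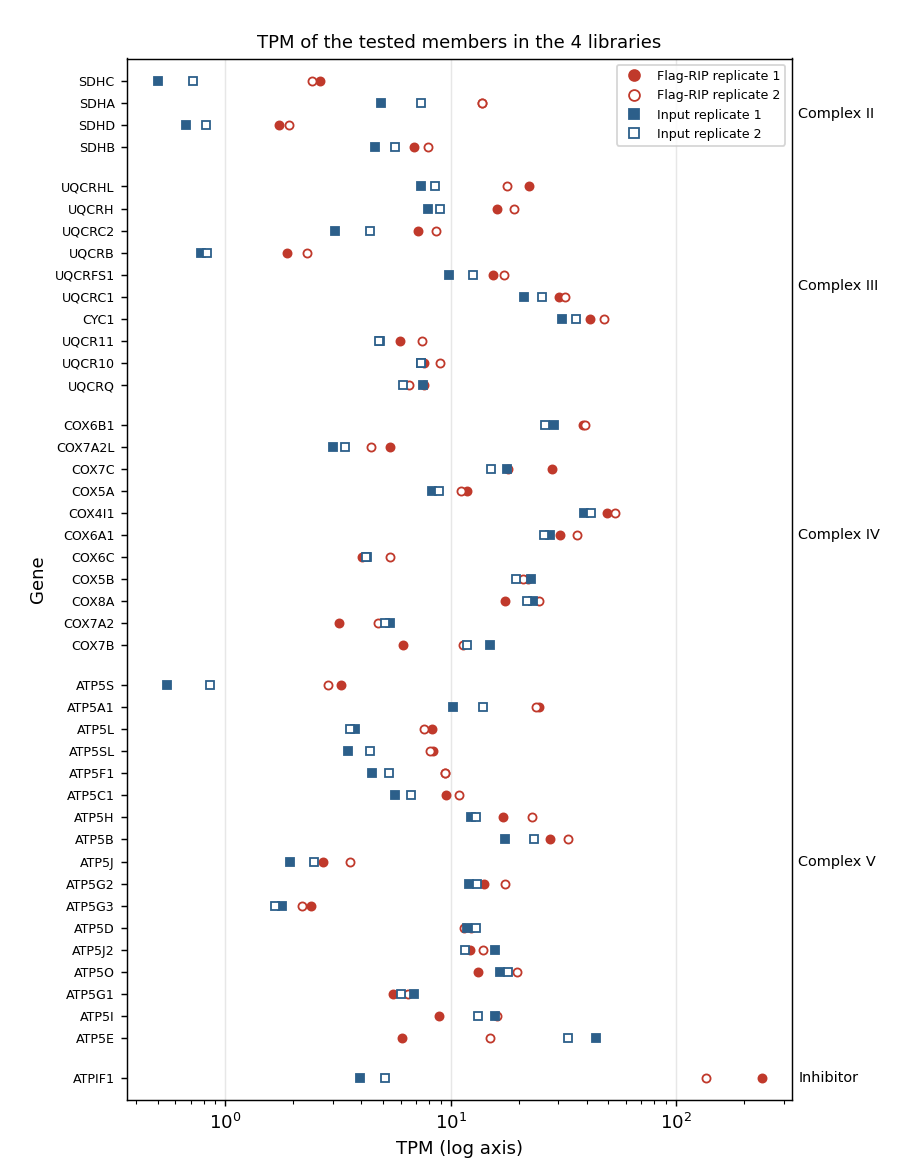
TPM (log axis) of the 43 tested members in each library, with Flag-RIP as red circles and input as blue squares, filled for replicate 1 and open for replicate 2. ATPIF1 stands at 239 and 135 TPM in Flag-RIP against 3.95 and 5.12 in input, ATP5E is lower in both Flag-RIP libraries, and most complex IV genes lie close together in all 4.

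ATPIF1 was the most strongly recovered member. It had 239 and 135 TPM in the Flag-RIP libraries, against 3.95 and 5.12 TPM in the inputs. Both Flag-RIP libraries were far above both inputs, and they differed from each other by 1.77-fold. The ratio of mean TPM was 41.2, and the smallest ratio of any Flag-RIP library to any input was 26.4. The centred change was 3.72 on the log2 scale (SE 0.24, limma adjusted p = 2.0e-04) and the change as deposited was 5.04 (SE 0.33, limma adjusted p = 5.8e-51). The fit as deposited took the variance of each gene from the trend over all genes. The p-values of that fit therefore do not rest on the gene's own replicates. ATPIF1 ranked as number 8 of the 10415 tested genes by centred change. It was called higher under all 15 alternative settings, with changes from 2.51 to 4.28. In GRCh38.p14 the gene lies on chromosome 1 from 28236124 to 28238100. The table gives 1 value per gene, so the part of the transcript that was recovered is not known.

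ATP5E (now ATP5F1E), the epsilon subunit in the central stalk of the ATP synthase, lay at the other end. It had 6.07 and 14.96 TPM in Flag-RIP and 44.17 and 33.06 TPM in input. Both Flag-RIP values were below both inputs, although they differed from each other more than those of any other tested member, with a ratio of replicate 1 to replicate 2 of 0.406. The ratio of mean TPM was 0.272. The centred change was -3.20 (SE 0.40, limma adjusted p = 0.0017), the change as deposited was -1.88 (SE 0.33, limma adjusted p = 4.5e-08), and ATP5E ranked as number 4 from the bottom of all tested genes by centred change. With robust variance fitting the centred decrease did not pass (limma adjusted p = 0.0616). The related pseudogene ATP5EP2 had at most 0.19 TPM in any library and was listed at 0 in both Flag-RIP libraries. The division of reads between near-identical copies is uncertain. ATP5E lies on chromosome 20 from 59025475 to 59032335.

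The make-up of the respiratory transcripts within each library does not depend on the scale of the other genes. ATPIF1 made up 23.1% ± 8.37 of the summed TPM of the 53 members in Flag-RIP and 0.909% ± 0.156 in input (SD, n = 2 each). ATPIF1 thereby lowers every other share of this sum in Flag-RIP, so the complexes were compared with it left out. Of the summed TPM without ATPIF1, complex IV made up 37.3% and 35.5% in Flag-RIP and 39.6% and 37.0% in input, and the groups overlapped. Complex V made up 31.7% and 34.5% in Flag-RIP and 37.6% and 36.8% in input, lower in both Flag-RIP libraries. Its sum includes ATP5E, at 6.07 and 14.96 TPM in Flag-RIP and 44.17 and 33.06 TPM in input. ATP5E is part of the sum behind every share, and its higher input values lower the shares of the other complexes in input. Shares without ATP5E were not computed. The lower share of complex V is therefore not read as one of the whole complex. Nor is the overlap of complex IV read as an equal share in both groups. Complex III made up 26.7% and 25.9% in Flag-RIP and 20.6% and 23.2% in input, and complex II 4.26% and 3.98% in Flag-RIP and 2.17% and 2.94% in input. With ATP5E in the sum, both were higher in each Flag-RIP library than in either input. For every TPM of ATP5B, the catalytic beta subunit on which ATPIF1 acts, there were 8.65 and 4.09 TPM of ATPIF1 in Flag-RIP and 0.226 and 0.218 in input. For every TPM of ATP5B there were 0.22 and 0.452 TPM of ATP5E in Flag-RIP and 2.53 and 1.41 in input. For a single value, 2 libraries against 2 allow no exact two-sided permutation p below 0.333, so these shares are given without a test.

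**Figure D2:**
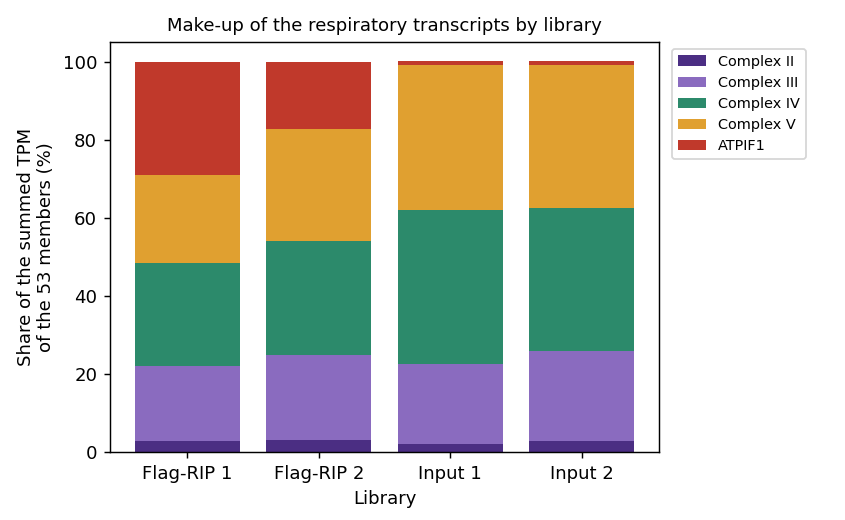
Share of the summed TPM of the 53 members (%) taken by each complex and by ATPIF1 in each library, as stacked bars. ATPIF1 takes 23.1% on average in Flag-RIP and 0.909% in input, which lowers the other shares of the Flag-RIP bars. With ATPIF1 left out of the sum and ATP5E kept in it, complex IV has 37.3% and 35.5% in Flag-RIP and 39.6% and 37.0% in input. These shares overlap between the groups, and shares without ATP5E were not computed.

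Promoter sequence was the sequence feature that could be compared. RefSeq windows of GRCh38.p14 gave the 250 bases before the start of the gene for 33 of the tested members. G and C made up a median of 60.4% of these bases in the 33 members, with a range of 36.4% to 75.2%, and a median of 65.6% in 7839 tested protein-coding genes, members included. The windows of ATPIF1 (57.6%) and ATP5E (74.8%), the members with the highest and the lowest centred change, are printed because the results turn on these genes. They end at the base before the RefSeq start, are in lower case and carry no marked letters.
ATPIF1 (chr1:28235874-28236123, plus strand): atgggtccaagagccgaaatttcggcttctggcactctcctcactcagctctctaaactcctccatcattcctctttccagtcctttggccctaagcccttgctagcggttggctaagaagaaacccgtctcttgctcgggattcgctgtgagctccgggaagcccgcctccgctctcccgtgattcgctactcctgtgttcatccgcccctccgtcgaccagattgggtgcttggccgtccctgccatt
ATP5E (chr20:59032336-59032585, minus strand): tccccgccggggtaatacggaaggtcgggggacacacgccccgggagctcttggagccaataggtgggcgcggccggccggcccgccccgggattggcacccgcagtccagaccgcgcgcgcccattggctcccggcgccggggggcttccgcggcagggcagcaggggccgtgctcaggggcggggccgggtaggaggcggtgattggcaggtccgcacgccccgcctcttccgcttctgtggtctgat

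Complex II lay nearest to the median gene by its own median. Of its 4 genes, 2 were lower after centring and 0 higher, with a median of -0.44, beside 24.4% lower and 16.4% higher over all tested genes. As deposited, 3 were higher, beside 92.3% of all tested genes. SDHA, the flavoprotein that oxidises succinate, had 13.72 and 13.68 TPM in Flag-RIP and 4.89 and 7.41 TPM in input. Its centred change was -0.25 (SE 0.12, limma adjusted p = 0.13). SDHB, the iron-sulphur subunit that takes electrons from SDHA, had 6.83 and 7.94 TPM in Flag-RIP and 4.60 and 5.68 TPM in input. It was lower after centring, at -0.87 (SE 0.13, limma adjusted p = 0.0029). The ratio of mean TPM was 2.23 for SDHA and 1.44 for SDHB.

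SDHC and SDHD encode the membrane anchors of complex II. SDHC had 2.64 and 2.42 TPM in Flag-RIP, against 0.50 and 0.72 TPM in input, and its change after centring was -0.18 (SE 0.14, limma adjusted p = 0.322). SDHD had 1.73 and 1.91 TPM in Flag-RIP and 0.67 and 0.82 TPM in input, and it was lower after centring, at -0.62 (SE 0.16, limma adjusted p = 0.0202). The log2(TPM + 1) scale understates the rise of low genes. The ratio of mean TPM of SDHC was 4.15, above that of the median gene. SDHC, SDHD, UQCRB and ATP5S had under 1 TPM in both inputs and passed the filter through their Flag-RIP values, so that they were higher as deposited is not read as a result. The calls of SDHB and SDHD were lost without input replicate 1 (limma adjusted p = 0.0588 and 0.19), that of SDHD also without input replicate 2 (0.0573).

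In complex III, 10 of 11 rows were tested, of which 8 were lower after centring and 0 higher, with a median of -0.85. Over all tested genes, 24.4% were lower and 16.4% higher. The genes that carry the redox groups were both lower. CYC1, the cytochrome c1 subunit, had 41.38 and 47.78 TPM in Flag-RIP and 31.24 and 36.08 TPM in input, and its change after centring was -0.92 (SE 0.18, limma adjusted p = 0.0068). UQCRFS1, the Rieske iron-sulphur protein, had 15.45 and 17.23 TPM in Flag-RIP and 9.83 and 12.58 TPM in input, with -0.80 (SE 0.14, limma adjusted p = 0.0047). Their ratios of mean TPM, 1.32 and 1.46, lay below that of the median gene. The large core subunits, which form the matrix side of the complex, had -0.90 for UQCRC1 (limma adjusted p = 0.0047) and -0.39 for UQCRC2 (limma adjusted p = 0.0443). The calls of CYC1, UQCRFS1 and UQCRC1 were lost with a pseudocount of 5, with no filter and without input replicate 1. The call of UQCRC2 was lost when any library other than Flag-RIP replicate 2 was left out (limma adjusted p of 0.132 to 0.224).

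The lowest values of complex III were in small subunits, but the small subunits as a set ranged from -1.27 to -0.34. UQCRQ, which sits beside cytochrome b, had 7.63 and 6.53 TPM in Flag-RIP and 7.55 and 6.13 TPM in input. The groups overlapped as deposited, and the centred change was -1.27 (SE 0.20, limma adjusted p = 0.0034). UQCR10 had 7.60 and 8.98 TPM in Flag-RIP and 7.40 and 7.35 TPM in input, and its change after centring was -1.17 (SE 0.17, limma adjusted p = 0.0025). UQCR11 had -0.93 (SE 0.17, limma adjusted p = 0.0059) and UQCRB -0.55 (limma adjusted p = 0.039). The call of UQCRB was lost with a pseudocount of 0.1, with quantile normalization and when either input library was left out. With 1 library left out, the centred change ranged from -1.60 to -0.94 for UQCRQ, from -1.37 to -0.97 for UQCR10 and from -1.13 to -0.72 for UQCR11. The call of UQCR11 was lost without input replicate 1.

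The hinge protein genes of complex III did not pass after centring. UQCRH, whose product helps the contact between cytochrome c1 and cytochrome c, had 16.06 and 19.11 TPM in Flag-RIP and 7.89 and 8.93 TPM in input, a centred change of -0.34 that did not pass (SE 0.16, limma adjusted p = 0.125). UQCRHL, a near copy of it, had 22.33 and 17.77 TPM in Flag-RIP and 7.36 and 8.48 TPM in input, with -0.08 (SE 0.15, limma adjusted p = 0.674). The Flag-RIP replicates ran in opposite orders for these copies, and the ratio of UQCRHL to UQCRH was 1.39 and 0.93 in Flag-RIP against 0.933 and 0.95 in input. Reads of such copies may have been divided between them by the estimate. The pseudogene UQCRBP1 had 0.74 and 1.15 TPM in Flag-RIP, against 0.29 and 0.54 TPM in input, and was not tested.

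Complex IV was lower throughout. All 11 tested genes were lower after centring, beside 24.4% of all tested genes, from -1.92 to -0.83 with a median of -1.01. As deposited, 0 of the 11 passed in either direction in the limma fit, also at an unadjusted p under 0.05. Over all tested genes, 92.3% were higher as deposited and 0.317% lower at an adjusted p under 0.05. That fit took each gene's variance from the trend over all genes. Both Flag-RIP values as deposited lay above both inputs for 6 of the 11, beside 96.7% of all tested genes. They lay below both for 2, beside 0.845%. With a pseudocount of 5 or no variance trend COX7B was lower as deposited. COX4I1, a regulatory subunit and the most abundant complex IV transcript here, had 49.43 and 53.67 TPM in Flag-RIP and 38.99 and 41.98 TPM in input. The centred change was -0.98 (SE 0.19, limma adjusted p = 0.0061). COX5A, which binds COX4I1 in the enzyme, had -0.94 (limma adjusted p = 0.0028), and COX5B, which holds a zinc ion, had -1.28 (limma adjusted p = 0.0036). COX6A1, COX6B1 and COX6C, small subunits of the outer part of the enzyme, had -1.01, -0.83 and -1.20 (limma adjusted p of 0.0028 to 0.016). The calls of COX4I1, COX6A1 and COX6B1 were lost with a pseudocount of 5 and without input replicate 1.

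The lowest complex IV values were those of COX7B, COX7A2 and COX8A, which encode small subunits. COX7B had 6.12 and 11.35 TPM in Flag-RIP and 14.89 and 11.80 TPM in input. Both Flag-RIP values lay below both inputs, replicate 2 only just, and the centred change was -1.92 (SE 0.31, limma adjusted p = 0.0035). COX7A2 had 3.18 and 4.75 TPM in Flag-RIP and 5.37 and 5.08 TPM in input, and its change after centring was -1.66 (SE 0.21, limma adjusted p = 0.0016). COX8A had 17.31 and 24.60 TPM in Flag-RIP and 23.06 and 21.86 TPM in input. Its groups overlapped as deposited, and the centred change was -1.43 (SE 0.23, limma adjusted p = 0.0036). COX7C differed from these, with 28.05 and 17.87 TPM in Flag-RIP against 17.79 and 15.12 TPM in input, and its change after centring was -0.89 (SE 0.25, limma adjusted p = 0.0257). Flag-RIP replicate 1 was the lower of the Flag-RIP libraries for COX7B, COX7A2 and COX8A and the higher one for COX7C. Without input replicate 1 the calls of COX7B, COX8A and COX7C were lost (limma adjusted p = 0.0518, 0.0507 and 0.19), and with robust variance fitting that of COX7B (0.0642).

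COX7A2L, a relative of COX7A2 known for joining complexes III and IV into supercomplexes, had 5.37 and 4.44 TPM in Flag-RIP and 3.01 and 3.38 TPM in input. Its centred change was -0.83 (SE 0.12, limma adjusted p = 0.0028), lost without input replicate 1 (0.0617), as was the call of COX6B1 (0.11). The 6 tissue-restricted forms, COX4I2, COX6A2, COX6B2, COX7A1, COX7B2 and COX8C, stayed under a mean of 1 TPM and were not tested. COX6B2, the testis form, had 0.88 and 0.94 TPM in Flag-RIP and 0.04 and 0.09 TPM in input. COX7A1, the muscle form, had 0.88 and 0.50 TPM in Flag-RIP and 0.07 and 0.22 TPM in input. COX8C was listed at 0 in every library.

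**Figure D3:**
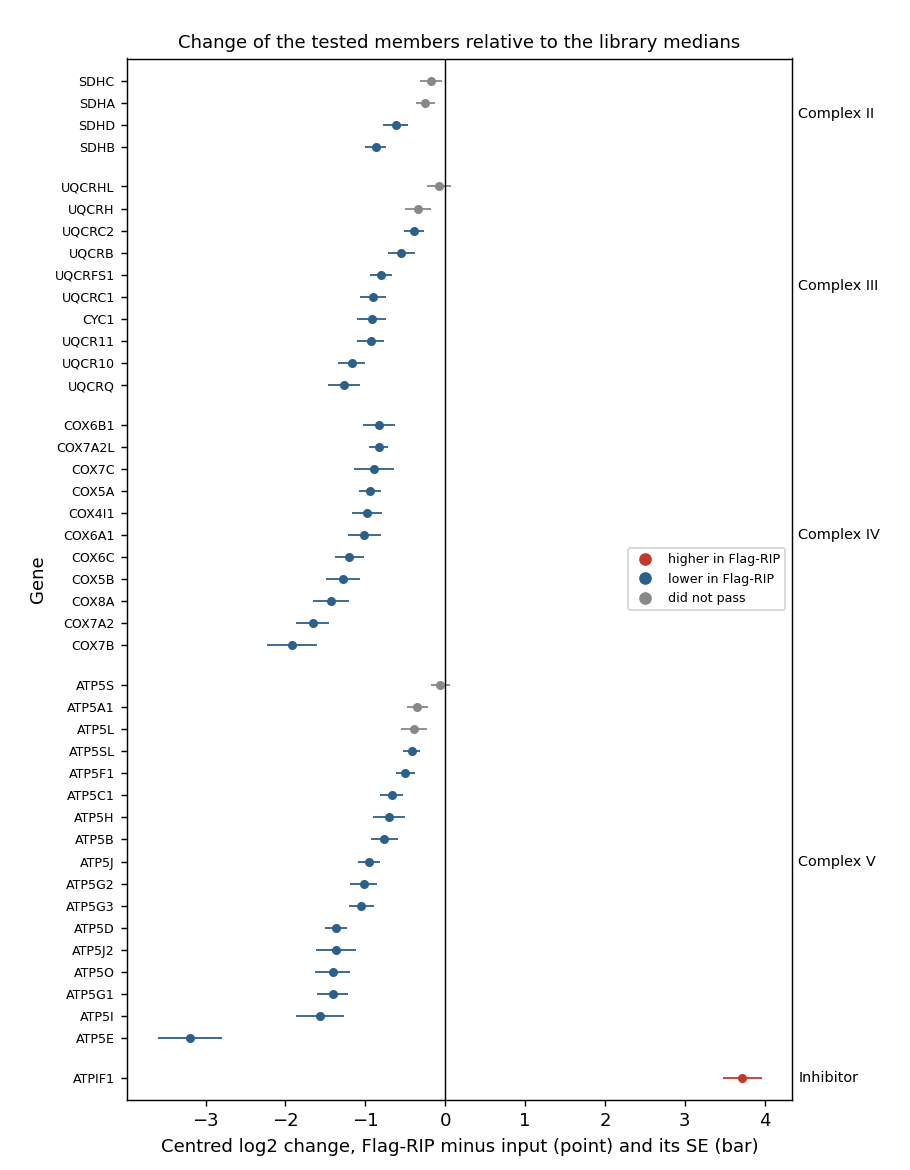
Centred log2 change (Flag-RIP minus input, points) with its SE (bars) for the 43 tested members, ordered within each complex and coloured by call. Every complex IV gene lies between -1.92 and -0.83, complexes II, III and V each reach up to -0.18 or nearer to 0, and ATPIF1 alone lies above 0, at 3.72.

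In complex V, 17 of 20 rows were tested, of which 14 were lower after centring and 0 higher, with a median of -0.95. The shares over all tested genes were 24.4% lower and 16.4% higher. The large subunits of the catalytic head had a median of -0.56, the central stalk -1.37, the c ring -1.05, the peripheral stalk -0.82 and the small membrane subunits -1.37. ATP5A1, the alpha subunit, had 24.56 and 23.87 TPM in Flag-RIP and 10.25 and 13.82 TPM in input, a centred change of -0.35 that did not pass (SE 0.13, limma adjusted p = 0.0706). ATP5B, the beta subunit, had 27.61 and 33.08 TPM in Flag-RIP and 17.46 and 23.49 TPM in input, with -0.76 (SE 0.17, limma adjusted p = 0.0106). The call of ATP5B was lost with a pseudocount of 5 and when either input library was left out. In the central stalk, which turns inside the head, ATP5C1 (gamma) had -0.67 (limma adjusted p = 0.0089) and ATP5D (delta) had -1.37 (SE 0.14, limma adjusted p = 9.6e-04). The call of ATP5C1 was lost with a pseudocount of 5, with no filter and without input replicate 1. ATP5D had 12.27 and 11.40 TPM in Flag-RIP and 11.74 and 12.94 TPM in input. The summed TPM of ATP5C1, ATP5D and ATP5E was 32.5 ± 6.68 in Flag-RIP and 57.1 ± 6.30 in input (SD, n = 2 each). Of these genes, only ATP5E was lower in both Flag-RIP libraries as deposited. ATP5D overlapped, and ATP5C1 was higher, with 9.48 and 10.91 TPM in Flag-RIP and 5.64 and 6.64 TPM in input.

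The c ring, the rotor in the membrane, is built of 1 protein encoded by 3 genes that differ in their import sequences. ATP5G2, the most abundant of them, had 14 and 17.35 TPM in Flag-RIP and 12.00 and 13.05 TPM in input, and its change after centring was -1.02 (SE 0.17, limma adjusted p = 0.0043). ATP5G1 had 5.55 and 6.43 TPM in Flag-RIP and 6.83 and 6.03 TPM in input, with -1.41 (SE 0.19, limma adjusted p = 0.0021). ATP5G3 had 2.39 and 2.18 TPM in Flag-RIP and 1.78 and 1.66 TPM in input, with -1.05 (SE 0.16, limma adjusted p = 0.0028). All 3 were lower after centring. ATP5G1 gave 25.3% and 24.8% of the c-ring TPM in Flag-RIP, against 33.1% and 29.1% in input, and the groups did not overlap. The calls of ATP5G2 and ATP5G3 were lost without input replicate 1 (limma adjusted p = 0.0612 and 0.0535).

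The 4 genes of the peripheral stalk, which holds the head still, were all lower after centring. ATP5O, the subunit that joins the stalk to the head, was the lowest of them, with 13.24 and 19.56 TPM in Flag-RIP and 16.50 and 17.91 TPM in input and a centred change of -1.41 (limma adjusted p = 0.0031). ATP5J had -0.95, ATP5H -0.70 and ATP5F1 -0.50 (limma adjusted p of 0.0027 to 0.0269). The calls of ATP5H and ATP5F1 were lost with a pseudocount of 5 and when either input library was left out. That of ATP5H was also lost with quantile normalization and without Flag-RIP replicate 1. Of the small membrane subunits, ATP5I, which takes part in dimers of the enzyme, had 8.87 and 16.05 TPM in Flag-RIP and 15.75 and 13.21 TPM in input. Its centred change was -1.57 (SE 0.30, limma adjusted p = 0.0064), lost without input replicate 1 (0.0777) and with robust variance fitting (0.069). ATP5J2 had -1.37 (limma adjusted p = 0.0053). ATP5L, another subunit of the dimer contact, had 8.24 and 7.57 TPM in Flag-RIP and 3.77 and 3.58 TPM in input, a centred change of -0.39 that did not pass (SE 0.16, limma adjusted p = 0.0794).

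Some ATP5 symbols do not name subunits of the enzyme. ATP5S (now DMAC2L) and ATP5SL (now DMAC2), the second an assembly factor of complex I, are related proteins. ATP5S had 3.25 and 2.85 TPM in Flag-RIP and 0.55 and 0.85 TPM in input, and its change after centring was -0.06 (SE 0.12, limma adjusted p = 0.712), and ATP5SL had -0.42 (SE 0.11, limma adjusted p = 0.0209). The copies ATP5EP2 and ATP5L2 and the read-through row ATP5J2-PTCD1 stayed under 1 TPM in every library and were not tested. With copies, related factors and ATPIF1 left out, 33 of 38 tested subunits were lower and 0 higher, with a median of -0.93, beside 24.4% and 16.4% of all tested genes.

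**Figure D4:**
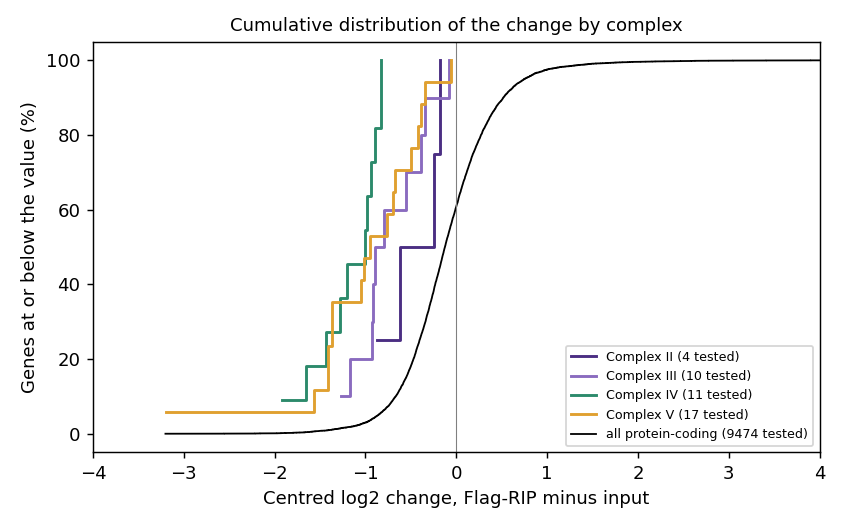
Cumulative share of genes (%) at or below each centred log2 change, for the tested genes of complexes II to V and for the 9474 tested protein-coding genes, members included. The medians of all 4 complexes lie to the left of that of the protein-coding genes, at -0.44, -0.85, -1.01 and -0.95 against -0.13.

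Over the tested genes, the median centred log2 level of complex IV was 3.50 and 3.62 in the Flag-RIP libraries and 5.09 and 4.47 in the inputs. For complex II it was 1.72 and 1.85 in Flag-RIP and 2.47 and 2.26 in input. Summed TPM was 225 ± 9.58 in Flag-RIP and 189 ± 7.45 in input for complex IV, and 25.4 ± 0.728 and 12.6 ± 2.81 for complex II (SD, n = 2 each). The difference between complexes was not tested. The genomic span of a member and its centred change were related across the 43 tested members at a Spearman rho of 0.40, against 0.27 across 9474 protein-coding genes. These values are across genes measured in the same libraries, and genes are not independent replicates. The median span was 8294 bases for the members and 29435 bases for the protein-coding genes. Of the 2006 protein-coding genes that span under 10000 bases, 45.4% were lower after centring, with a median of -0.35. Of the 24 tested members under that span, 21 were lower with a median of -0.99, and of the 19 longer ones, 14 with a median of -0.83. The part of gene length in the members' shift was not tested.

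The other genes of the pathway were read from lists chosen by function. Over all tested genes, 24.4% were lower and 16.4% higher after centring, which stand beside the counts of every list below. Of 33 tested complex I subunits, 28 were lower after centring and 0 higher, with a median of -0.86. NDUFS8, an iron-sulphur subunit, had 19.44 and 23.11 TPM in Flag-RIP and 28.82 and 29.44 TPM in input, a centred change of -1.76 (limma adjusted p = 0.0011), and NDUFB5 had 0.03 (limma adjusted p = 0.871). Subunits outside the symbol pattern were also lower, with NDUFA4 of complex IV at -1.49 (limma adjusted p = 0.0011) and USMG5 and C14orf2 of complex V at -1.46 and -0.78 (limma adjusted p = 0.0035 and 0.0071). CYCS, the electron carrier cytochrome c, had 2.05 and 2.24 TPM in Flag-RIP and 0.55 and 0.71 TPM in input, with -0.37 (limma adjusted p = 0.0983).

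Assembly factors, which build the complexes but are not part of them, had median centred changes of -0.38 for complex II, -0.59 for complex III, -0.36 for complex IV and -0.55 for complex V. Of 20 tested assembly factors of complex IV, 9 were lower and 3 passed as higher, beside 24.4% and 16.4% of all tested genes. The count of higher ones is near that share and is not read as a result about these factors. COX16 and PET117, at 0.59 and 0.57 (limma adjusted p = 0.029 and 0.0286), had input means of 0.38 and 0.735 TPM and passed the filter through their Flag-RIP values, so these calls are not read as a result. COA1, with an input mean of 2.1 TPM, was higher at 0.51 (limma adjusted p = 0.0136), and COX14 was the lowest at -1.25 (limma adjusted p = 0.0035). Both tested factors of complex II were lower, SDHAF1 at -0.40 and SDHAF2 at -0.36 (limma adjusted p = 0.0183 and 0.0262). Of 5 tested factors of complex III, 4 were lower, with UQCC2 at -0.96 and TTC19, which did not pass, at -0.37 (limma adjusted p = 0.0023 and 0.118). Both tested factors of complex V were lower, ATPAF2 at -0.65 and ATPAF1 at -0.46 (limma adjusted p = 0.0036 and 0.0091). Of 6 tested carriers and channels that move ATP, ADP and phosphate across the mitochondrial membranes, 5 were lower and 1 higher, beside the same shares. The higher count is near its share and is not read as a result about the carriers. The higher one was VDAC1, the main channel of the outer membrane, with 31.87 and 29.64 TPM in Flag-RIP and 6.66 and 9.15 TPM in input and a centred change of 0.53 (limma adjusted p = 0.0167). VDAC3 had the lowest value at -0.76 (limma adjusted p = 0.0024).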

How the data were processed

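RNA of 4 U2OS libraries was measured, 2 of Flag-RIP and 2 of input. The authors deposited TPM values in 1 table. STAR and RSEM 1.2.31 with GRCh38 are named in the submitters' processing notes, and the sources used here do not name an annotation, a filter or a strand setting. RSEM estimates how reads divide among similar genes, so values of copies are uncertain. TPM holds no depth, so no counting interval is given.

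Samples were grouped by title. The 92 spike-in rows were kept in the totals and left out of the tests. Genes with a mean of at least 1 TPM were tested on log2(TPM + 1) by limma 3.58.1 (R 4.3.3; linear model, empirical Bayes with a variance trend, two-sided, Benjamini-Hochberg over 10415 genes), with libraries shifted to a common median and as deposited. Prior and residual degrees of freedom were 5.72 and 2 in the centred fit, and infinite and 2 in the fit as deposited. With an infinite prior, the p-values rest on the variance trend over all genes. With 1 library left out, the residual was 1. The prior was then infinite without a Flag-RIP library, and 5.28 (centred) or 3.39 (as deposited) without an input library. The procedure was tested on simulated data. Symbols, spans and promoter windows are from RefSeq tables of GRCh38.p14, which held all 53 members. The members, lists, scales and the rule for genes given in full (ATPIF1, ATP5E, complex II, the c ring, and the 3 highest and 3 lowest of complexes III to V) were chosen with earlier results of these data known. In the other lists, the largest rise and fall were named, and other genes were named after their values were seen. Alternatives were pseudocounts, filters, variance models, scalings, a replicate term and leaving out each library.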

Additional observations from a re-analysis of the deposited data

How the results depend on the processing

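With 2 libraries a group and no read depth, the precision of low members is the least certain. The centred count of lower members, 35, became 23 at a pseudocount of 5 (53.5% of members, beside 33.4% of all tested genes) and 20 of 52 when no filter was set (38.5%, beside 43.6%), where 14 of the 20 were among the 35, and ranged from 11 to 37 when 1 library was left out. The centred count of higher members was 3 with no filter (ATPIF1, SDHC and ATP5S), 5.77% beside 23.8% of all tested genes. It was 2 without the 20 most abundant rows (ATPIF1 and COX6B2), 4.35% beside 9.2% of all tested genes. As deposited, the count of higher members was 9 at a mean TPM of at least 5, where 34 members were tested, and ranged from 3 to 22 when 1 library was left out, and the count of lower members was 2 at a pseudocount of 5 and likewise with no variance trend (ATP5E and COX7B). The changes that reversed were small ones. With a pseudocount of 0.1 SDHC had 0.19 and ATP5S 0.28. With a pseudocount of 5 SDHA had 0.09, UQCRH 0.08, UQCRHL 0.28 and ATP5A1 0.12. With no filter SDHA had 0.30, SDHC 0.37, UQCRC2 0.16, UQCRH 0.22, UQCRHL 0.47, ATP5L 0.17, ATP5A1 0.21 and ATP5S 0.50. With 1 library left out, UQCRHL ranged from -0.20 to 0.03 and was above 0 without input replicate 1 (0.02) or Flag-RIP replicate 2, and ATP5S ranged from -0.13 to 0.01 and was above 0 without input replicate 1. SDHC and ATP5S had 0.02 and 0.09 with quantile normalization, and 0.09 and 0.16 without the 20 most abundant rows. The cause of these changes was not tested beyond the make-up of each setting. Scaled to the spike-ins, 41 of 44 tested members were lower (93.2%, beside 61.7% of all tested genes) and ATPIF1 was higher, as were 2.46% of all tested genes. The median of complex II ranged from -1.18 to 0.12 over the settings, that of complex III from -2.03 to -0.30, of complex IV from -2.36 to -0.39 and of complex V from -1.99 to -0.43. The labels give no shared source for equal replicate numbers, and deviations of same-numbered libraries correlated at -0.0673 over genes. With the replicate number as a block, 35 members were lower and 1 higher after centring, beside 23.6% and 16.5% of all tested genes. As deposited, 1 was then lower and 13 higher, beside 0.259% and 87.5% of all tested genes.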
